A study of Homo sapiens with 8 samples.

Results

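The genes described here are 8 transcription factors of the intestinal epithelium, CDX1, CDX2, HNF4A, GATA6, KLF4, KLF5, SOX9 and ELF3, taken by symbol from 2 tables of mRNA-seq read counts. They are 8 of the 42125 genes in the table of the TFAP2C siRNA experiment and 8 of the 23393 genes in that of the UBA2 shRNA experiment, and each has a row in both. The cells were HCT116, an established human colorectal cancer line, and the labels describe them in all 8 libraries as stably carrying a Tet-On shRNA against SAE2, the protein now called UBA2. In the first experiment they were transfected either with control siRNA or with TFAP2C siRNA and left for 48 hrs. In the second they were grown for 5 days either in doxycycline (Dox) at 1 μg/mL, which switches the shRNA on, or without it, and the labels name DMSO for the latter. Each of the 4 groups had 2 libraries. All come from a single cell line, so the values describe that line, and the sources do not say that replicates were separate cultures, so p-values measure only the spread between these libraries.

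As background, CDX2 and CDX1 are homeobox factors that specify and maintain intestinal identity. HNF4A, a nuclear receptor, and GATA6, a zinc finger factor, act with CDX2 on the genes of absorptive enterocytes. KLF4 and KLF5 are Krüppel-like zinc finger factors that bind similar GC-rich and CACCC sites, KLF4 being typical of post-mitotic cells near the lumen and KLF5 of dividing crypt cells. SOX9 marks stem and progenitor cells at the crypt base and Paneth cells, and ELF3 is an ETS factor restricted to epithelia. TFAP2C encodes AP-2γ, a factor that binds GC-rich palindromes, and UBA2 encodes a subunit of the enzyme that activates SUMO for attachment to proteins, many transcription factors among them.

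Total counts were 20785035 to 24465109 in the siRNA experiment and 18213739 to 20607813 in the shRNA experiment. The targeted TFAP2C had 18.9 and 20.5 CPM (read counts scaled to the library total, with edgeR's TMM factor) with control siRNA and 3.46 and 4.30 CPM in TFAP2C KD, where it fell by 80.3% (edgeR quasi-likelihood test, Benjamini-Hochberg adjusted p = 7.67e-06). UBA2 had 162 and 146 CPM without Dox and 147 and 153 CPM with it, with a log2 fold change of -0.036 (95% interval -0.15 to 0.078, adjusted p = 0.766 in the same test). The RNA thus did not show the labelled knockdown, and the libraries with Dox are called the libraries labelled UBA2 KD throughout. The TFAP2C siRNA libraries differed more from each other than the replicates of the other groups, with a chi-square per degree of freedom of 9.09 against 2.55 to 2.76 over genes. Of 10 epithelial markers, 8 were tested in both experiments and summed with the rest to 2611 to 4008 CPM in the 8 libraries, EPCAM, KRT8 and KRT18 among them, while VIL1 and GPA33 were near 0. Of 8 fibroblast and mesenchymal markers, which summed to 61.6 to 67.6 CPM in the siRNA experiment and 24.7 to 31.7 CPM in the shRNA experiment, COL1A1 held the most and COL1A2, DCN and LUM were at 0 counts in all libraries. The haematopoietic list reached at most 1.82 CPM.

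The levels of the 8 factors per length of gene model, given as RPKM, spanned from no counts to a group mean of 80.4, and SOX9 was the highest in every group. In cells with control siRNA, the mean RPKM was 77.2 for SOX9, 35.4 for KLF5, 17.1 for ELF3, 11.2 for KLF4, 5.28 for CDX2, 3.64 for GATA6 and 0.102 for HNF4A. In cells without Dox it was 70.0 for SOX9, 25.2 for KLF5, 14.4 for KLF4, 11.6 for ELF3, 8.45 for CDX2, 2.64 for GATA6 and 1.63 for HNF4A. The ranges of neighbours in these orders did not overlap over the 2 libraries of a group. SOX9 and KLF5 thus led in both experiments, and GATA6 and HNF4A closed the order when CDX1, the lowest in every group, was left out. KLF4 stood below ELF3 in the siRNA experiment and above it in the shRNA experiment. With Dox, CDX2 at 8.44 RPKM stood just above ELF3 at 7.98 RPKM, an order that turned when the lengths of the reference annotation were used, which gave 5.64 RPKM for CDX2 and 6.85 RPKM for ELF3. The tables were counted separately on gene models of different lengths, so levels are compared within a table only.

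**Figure D1:**
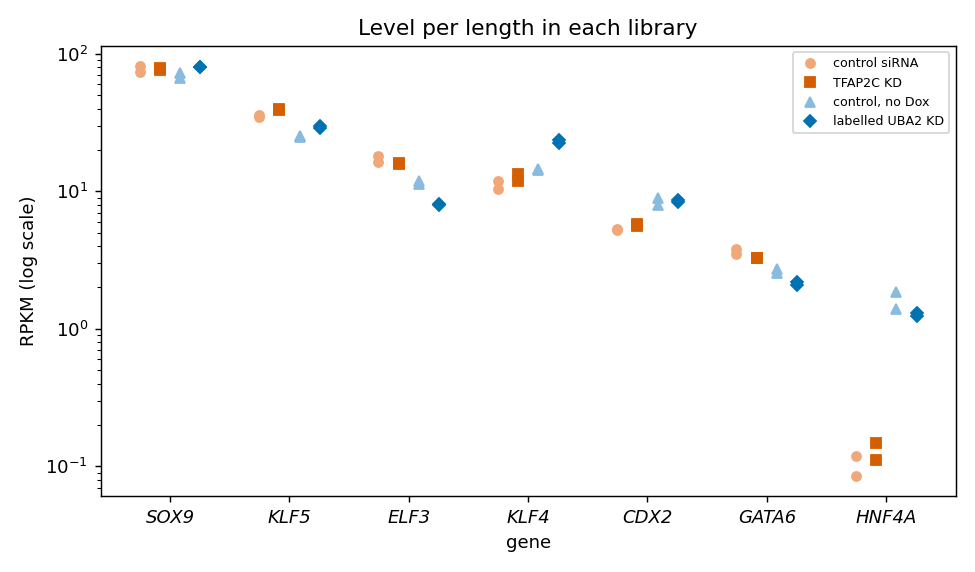
RPKM (reads scaled to the length of the gene model and to the library total, log axis) of 7 intestinal transcription factors in each library of the 4 groups, each point a library. SOX9 is highest in every group, and HNF4A is lowest among the 7 factors drawn, at a mean of 0.102 RPKM with control siRNA and 1.63 RPKM without Dox.

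Among all genes tested, SOX9 stood at percentile 97.5 of the RPKM values with control siRNA and at percentile 93.5 without Dox. CDX2 stood close to the middle, at percentiles 52.1 and 48.7. Its gene model was 4.118 kb long in the siRNA and 2.348 kb in the shRNA experiment, against 3.517 kb in the reference annotation. With the reference length the mean RPKM of CDX2 was 6.19 with control siRNA and 5.64 without Dox. Percentiles were not computed with that length. HNF4A was at percentile 1.66 in the siRNA experiment and 18.3 in the shRNA experiment, and its 13 to 26 counts per library in the former against 126 to 212 in the latter set the precision of its values. The gene model of HNF4A was 7.298 kb long in the former table and 5.457 kb in the latter. CDX1 had 0, 1, 0 and 0 counts in the siRNA experiment and 0 in all 4 libraries of the shRNA experiment. A count of 0 allows up to 3 counts per library (counting error only). Where CDX1 had 0 counts, that is 0.123 to 0.134 CPM in the siRNA and 0.146 to 0.165 CPM in the shRNA experiment. CDX1 failed the filter on low counts in both experiments, and the other 7 factors passed it.

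The shRNA experiment compared cells with Dox and without it, and 4 of the 8 factors changed in the libraries labelled UBA2 KD. All cells given Dox carried the shRNA, so effects of Dox itself and of the shRNA cannot be told apart. KLF4, KLF5 and SOX9 rose, ELF3 fell, and CDX2, HNF4A and GATA6 did not pass the threshold of an adjusted p under 0.05. Of all 13381 genes tested, 9.98% passed it, 5.52% as higher and 4.47% as lower. The groups did not overlap for 6 of the 7 factors tested, while 51.3% of all genes tested did not overlap either. The median log2 fold change was -0.0045 over the 7 factors and -0.00042 over all genes. In bulk RNA, a change in the share of cells that express a gene and a change in RNA per cell cannot be told apart.

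KLF4 and ELF3 had the largest changes, in opposite directions, and CDX2 had the most matches to the AP-2 motif, so the promoter windows of these 3 genes are printed. The windows are from RefSeq on GRCh38.p14, run 5′ to 3′ on the strand of the gene, and hold 250 bases before the annotated start and 50 after it. Capitals mark matches on either strand to the AP-2 palindrome GCCNNNGGC, the GC box GGGCGG, the Krüppel-like motif CACCC and the TATA box TATAAA. The windows lie at chr9:107489720-107490019 for KLF4 and chr13:27969266-27969565 for CDX2, both on the minus strand, and at chr1:202010337-202010636 for ELF3 on the plus strand.
KLF4: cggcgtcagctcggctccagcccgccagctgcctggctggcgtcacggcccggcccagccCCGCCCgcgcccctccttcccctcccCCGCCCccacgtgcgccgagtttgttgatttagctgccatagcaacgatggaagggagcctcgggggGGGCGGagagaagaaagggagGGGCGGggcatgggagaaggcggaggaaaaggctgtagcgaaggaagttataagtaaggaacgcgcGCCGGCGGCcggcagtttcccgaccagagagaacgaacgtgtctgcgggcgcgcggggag
ELF3: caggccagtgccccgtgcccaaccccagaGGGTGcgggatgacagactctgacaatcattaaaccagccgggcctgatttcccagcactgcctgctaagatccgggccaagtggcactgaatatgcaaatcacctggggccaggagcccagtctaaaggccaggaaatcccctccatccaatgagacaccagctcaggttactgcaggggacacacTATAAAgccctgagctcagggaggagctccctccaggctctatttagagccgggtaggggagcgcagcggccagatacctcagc
CDX2: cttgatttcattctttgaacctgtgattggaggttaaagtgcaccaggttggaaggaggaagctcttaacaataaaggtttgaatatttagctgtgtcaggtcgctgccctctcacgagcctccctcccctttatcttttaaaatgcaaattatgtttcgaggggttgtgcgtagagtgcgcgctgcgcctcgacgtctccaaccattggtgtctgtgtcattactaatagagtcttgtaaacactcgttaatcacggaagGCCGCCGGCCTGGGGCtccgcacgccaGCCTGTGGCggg

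RefSeq windows were found for 6 of the 8 factors, all but SOX9 and CDX1, with 2 windows each for HNF4A and KLF5. An AP-2 match was in 3 of these 8 windows, those of CDX2, GATA6 and KLF4, and in 23.2% of all 35116 promoter windows. CDX2 held 3 such matches, which start at positions 12, 19 and 39 after the annotated start, the first pair overlapping, and that of KLF4 starts at -10, where the annotated start is position 1 and the base before it -1. GC boxes were in 4 of the 8 windows and in 45% of all windows, and KLF4 held 4 of them, from -190 to -76. CACCC was in 6 of the 8 and in 59.9% of all windows. A TATA box was in 2 of the 8 and in 11.5% of all windows, and that of ELF3 starts at -34. These matches are descriptions of the sequence and no evidence of binding.

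KLF4 (hg19 chromosome 9, 110247133 to 110252047) had 46.6 and 45.7 CPM without Dox and 75.9 and 72.6 CPM in the libraries labelled UBA2 KD. Both of the latter lay above both controls, with a gap many times the spread inside either group. The rise was 1.61-fold, a log2 fold change of 0.69 with SE 0.065 (95% interval 0.55 to 0.82), and its adjusted p of 1.46e-09 (edgeR quasi-likelihood test) ranked it 60th of 13381 genes. The change lay between 0.66 and 0.72 in all 11 alternative settings and passed the threshold in each.

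KLF5 (hg19 chromosome 13, 73629114 to 73651676), the factor of dividing crypt cells, had 89.8 and 88.1 CPM without Dox and 102 and 105 CPM in the libraries labelled UBA2 KD. The groups did not overlap, and the rise of 16.6% (log2 fold change 0.22, SE 0.058, edgeR adjusted p = 0.0103) was smaller than that of KLF4. Without replicate 2 of the controls the adjusted p was 0.0984, and without the second library labelled UBA2 KD it was 0.0532, with changes of 0.21 and 0.20.

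SOX9 (hg19 chromosome 17, 70117161 to 70122560), the factor of the crypt base, had 286 and 264 CPM without Dox and 317 and 315 CPM with it. Both libraries labelled UBA2 KD lay above both controls, whose own spread was wider than that of the libraries with Dox. The rise was 14.9%, with a log2 fold change of 0.20 (SE 0.049, edgeR adjusted p = 0.00542). It missed the threshold without replicate 2 of the controls (0.14, adjusted p = 0.197) and in a fit of all 8 libraries (0.20, adjusted p = 0.0742).

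ELF3 (hg19 chromosome 1, 201977073 to 201986315), the epithelial ETS factor, had 69.2 and 73.4 CPM without Dox and 48.7 and 49.7 CPM in the libraries labelled UBA2 KD. Both of the latter lay below both controls. It fell by 31.0% (95% interval of the change -37.1% to -24.4%), a log2 fold change of -0.54 with SE 0.065, and its edgeR adjusted p of 2.49e-07 ranked it 127th of all genes. It held in all 11 alternative settings, between -0.58 and -0.49.

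Epithelial markers moved beside these genes. Of 8 tested, 5 passed the threshold of edgeR (62.5%, beside 9.98% of all genes). CLDN7 (0.29), KRT18 (0.25), KRT8 (0.18) and EPCAM (0.15) were higher on the log2 scale and CLDN4 (-0.17) was lower with Dox. The summed list ran from 2611 to 2624 CPM without Dox and from 2910 to 2989 CPM with it. In the same groups, 8 fibroblast and mesenchymal markers summed to 25.7 to 31.7 and 24.7 to 27.8 CPM, of which COL1A1 held the most, and 7 hepatocyte and gastric markers to 3.21 to 3.26 and 3.44 to 4.44 CPM. The haematopoietic and endothelial lists stayed at or under 1.82 and 0.908 CPM. None of these 4 lists had a gene past the threshold of edgeR in either experiment, with 1 fibroblast marker at an unadjusted p under 0.05 in this one. Their part in the changes of the 8 factors was not tested.

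CDX2 (hg19 chromosome 13, 28536205 to 28543505) had 18.8 and 20.9 CPM without Dox and 20.2 and 19.5 CPM with it. The libraries labelled UBA2 KD lay inside the range of the controls. The log2 fold change of -0.0045 had a 95% interval from -0.20 to 0.19 (edgeR adjusted p = 0.985), a change of between -12.7% and 13.8%.

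HNF4A (hg19 chromosome 20, 42984441 to 43061485) had 7.59 and 10.2 CPM without Dox and 7.16 and 6.77 CPM with it. Both libraries labelled UBA2 KD lay below both controls, but the controls lay further apart than the groups at their nearest points. The log2 fold change was -0.36 (SE 0.14, edgeR adjusted p = 0.119), and replicate 2 of the controls decided its size. Without that library it was -0.12 (adjusted p = 0.800), and without replicate 1 of the controls it was -0.54 (adjusted p = 0.00970).

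GATA6 (hg19 chromosome 18, 19749404 to 19782491) had 9.99 and 10.8 CPM without Dox and 8.22 and 8.59 CPM with it. The groups did not overlap, and the log2 fold change was -0.31 (SE 0.12, edgeR adjusted p = 0.121). HNF4A and GATA6 each had an unadjusted p under 0.05, as did the 4 factors that passed the adjusted threshold, beside 22.7% of all genes tested.

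**Figure D2:**
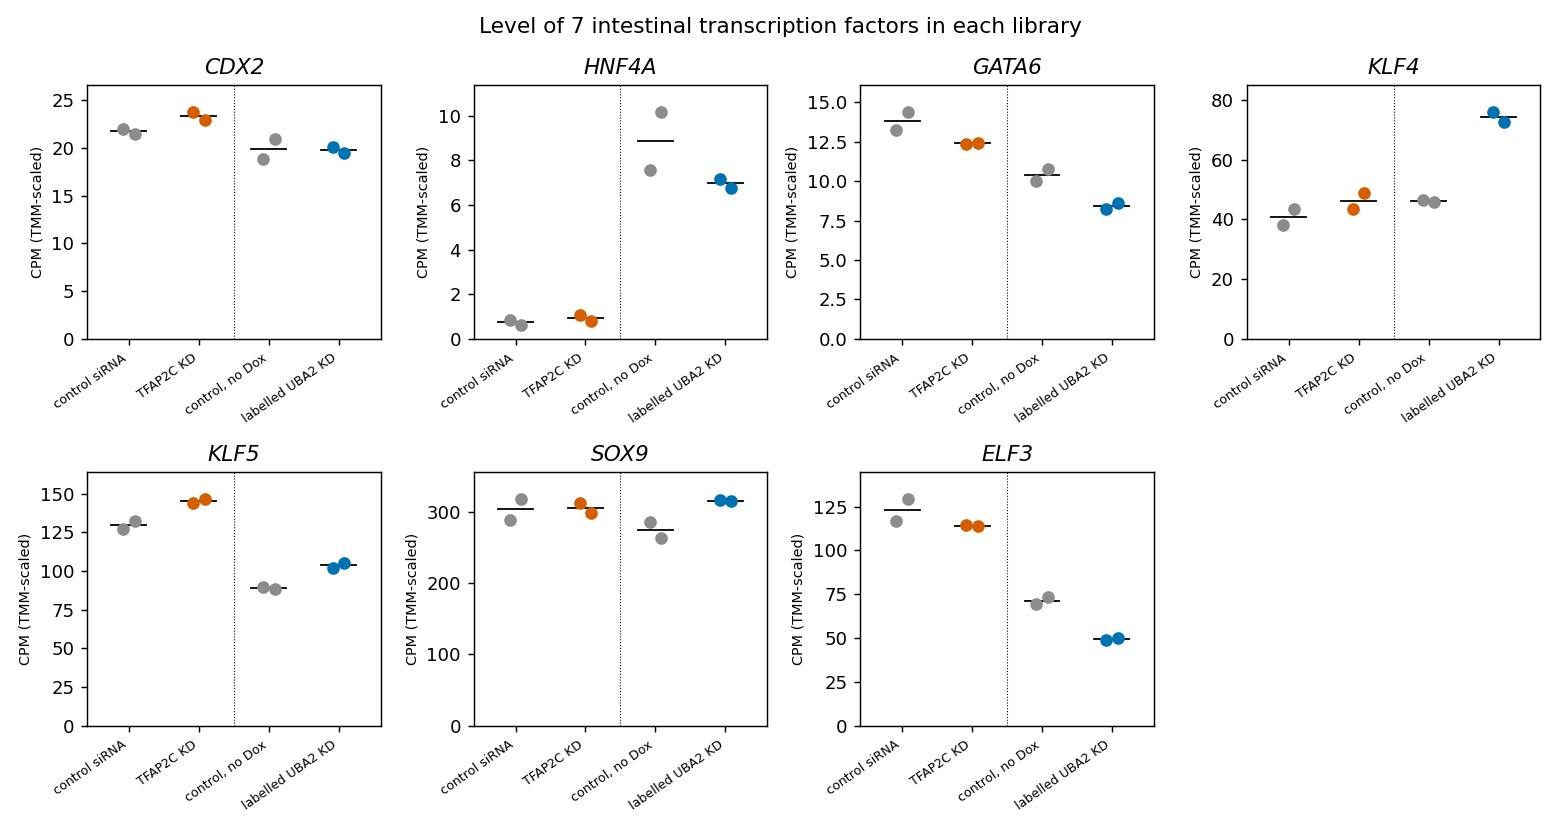
TMM-scaled CPM (linear axis from 0) of the 7 intestinal transcription factors that passed the filter, in each of the 8 libraries, with points for libraries and lines for the means of the 2 libraries of a group; the dotted line separates the experiments. KLF4 rises from 45.7 and 46.6 CPM without Dox to 72.6 and 75.9 CPM in the libraries labelled UBA2 KD, ELF3 falls from 69.2 and 73.4 to 48.7 and 49.7 CPM, and in TFAP2C KD the points lie close to those of the control siRNA.

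The siRNA experiment compared cells given TFAP2C siRNA with cells given control siRNA. In TFAP2C KD, 0 of the 7 factors tested passed the threshold by edgeR's quasi-likelihood test. The Wald test of DESeq2, which gave no adjusted p for HNF4A, called 0 of the others. It called 114 genes in all, where edgeR called 111. Of all 14991 genes tested by edgeR, 0.74% passed the threshold, 0.26% as higher and 0.48% as lower. At an unadjusted p under 0.05 there was 1 factor, KLF5, beside 12.6% of all genes. The groups did not overlap for 4 of the 7 factors, and 44.7% of all genes tested did not overlap either. The median log2 fold change was 0.10 over the factors and -0.0038 over all genes. The epithelial markers summed to 3373 to 3517 CPM with control siRNA and to 3728 to 4008 CPM in TFAP2C KD, with 0 of 8 tested past the threshold and 3 at an unadjusted p under 0.05, and their part in these values was not tested.

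KLF5 had 127 and 133 CPM with control siRNA and 144 and 147 CPM in TFAP2C KD. Both KD libraries lay above both controls, and the log2 fold change was 0.16 with SE 0.068 (95% interval 0.013 to 0.31, edgeR adjusted p = 0.357).

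KLF4 had 38.2 and 43.6 CPM with control siRNA and 43.4 and 48.8 CPM in TFAP2C KD. These groups overlapped, and the log2 fold change was 0.17 (SE 0.094, 95% interval -0.030 to 0.38, edgeR adjusted p = 0.470). Its size depended on single libraries, with 0.079 and 0.26 without replicate 1 and replicate 2 of the control siRNA and 0.093 without replicate 2 of TFAP2C KD. Without replicate 1 of TFAP2C KD the log2 fold change of KLF4 was 0.26.

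ELF3 had 117 and 129 CPM with control siRNA and 114 CPM in both TFAP2C KD libraries, and GATA6 had 13.3 and 14.4 CPM against 12.4 in both. For either gene the KD libraries lay just below the lower control. The log2 fold changes were -0.11 (95% interval -0.27 to 0.054) for ELF3 and -0.15 (-0.39 to 0.079) for GATA6, with edgeR adjusted p of 0.579 and 0.580. Without replicate 1 of the control siRNA they were -0.18 and -0.21, and without replicate 2 they were -0.039 and -0.10.

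CDX2 had 22.0 and 21.5 CPM with control siRNA and 23.8 and 22.9 CPM in TFAP2C KD, with the KD libraries a little above both controls and a log2 fold change of 0.10 (95% interval -0.098 to 0.30, edgeR adjusted p = 0.684). SOX9 had 289 and 319 CPM against 312 and 299 CPM, with the KD libraries inside the range of the controls and a log2 fold change of 0.0087 (-0.15 to 0.16, adjusted p = 0.975). HNF4A had 0.862 and 0.623 CPM against 1.08 and 0.805 CPM, groups that overlapped, and its 95% interval from -0.40 to 1.07 was the widest of the 7. Its log2 fold change of 0.34 lay between 0.10 and 0.60 when single libraries were left out. In this table SOX9-AS1 spans all of SOX9 on the opposite strand, and ELF3-AS1 and GATA6-AS1 overlap their partners by 2519 and 290 bases. Because the strand setting of the counting is not stated, their reads could not be told apart from those of the 3 factors, and they held 638, 396 and 57 counts over the 4 libraries.

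**Figure D3:**
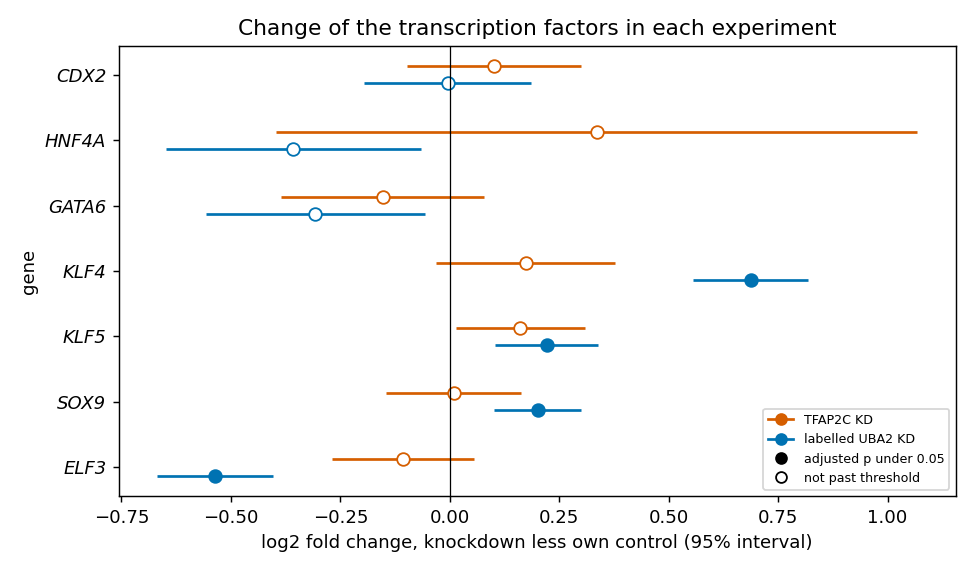
Log2 fold change (knockdown over its own control) of the 7 tested intestinal transcription factors in each of the 2 experiments, with bars for the 95% interval of edgeR and filled points for an adjusted p under 0.05. KLF4 at 0.69 and ELF3 at -0.54 stand furthest from 0 in the libraries labelled UBA2 KD, and no factor passes the threshold in TFAP2C KD.

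The changes of the experiments were compared directly in a fit of all 8 libraries, each KD against its own control, where 2.37% of 13179 genes differed, 0.903% with a higher change in TFAP2C KD and 1.47% with a lower one. Among the 7 factors 2 did, 1 in each direction. The change of KLF4 in TFAP2C KD was lower than its change in the libraries labelled UBA2 KD by 0.53 on the log2 scale (difference -0.53, SE 0.12, edgeR adjusted p = 0.0249), and that of ELF3 was higher by 0.42 (SE 0.095, adjusted p = 0.0322). Both calls were lost when either library without Dox or either library labelled UBA2 KD was left out, that of KLF4 also without replicate 2 of the control siRNA and that of ELF3 without replicate 1, with adjusted p of up to 0.202 and 0.190. Over all left-out fits, including those in which the calls held, the differences ran from -0.62 to -0.41 for KLF4 and from 0.35 to 0.51 for ELF3. With the replicate number as a block, the adjusted p for ELF3 was 0.106. The differences of the other 5 factors did not pass the threshold, at 0.68 for HNF4A (adjusted p = 0.464), -0.20 for SOX9 (0.290), 0.14 for GATA6 (0.733), 0.092 for CDX2 (0.805) and -0.073 for KLF5 (0.761). Transfection, Dox, time, gene models and counting also differ between the experiments and cannot be told apart from the targets in these differences.

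Relatives of the 8 factors, taken from a list of 40 genes with the same kind of DNA-binding domain, changed in the libraries labelled UBA2 KD in 8 of 26 tested genes, 6 higher and 2 lower. That is 30.8%, beside 9.98% of all genes, and the median log2 fold change was 0.032. The lists used here were written with earlier results of these data known, so their shares of called genes are descriptions. The Krüppel-like factors made up most of it, with 5 of 12 tested relatives higher, 1 lower and 6 not past the threshold.

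KLF9 (log2 fold change 0.41, SE 0.099) had 14.3 and 14.1 CPM without Dox and 18.3 and 19.4 CPM with it. KLF10, a gene induced by TGF-β, had 119 and 106 CPM against 140 and 133 CPM (0.28, SE 0.058). The other relatives with the largest called rises were KLF13 at 0.26 and KLF2 at 0.25. KLF7 fell, from 19.0 and 22.6 to 16.99 and 16.5 CPM (-0.31, SE 0.099). Adjusted p values from edgeR were 0.00526 for KLF9, 0.00113 for KLF10, 0.00320 for KLF13, 0.0218 for KLF2 and 0.0378 for KLF7, and the groups did not overlap in any of them, as in 51.3% of all genes. The rise of KLF4 at 0.69 was larger in value than that of any relative of its family tested, but differences between genes were not tested.

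Of 6 SOX relatives tested, SOX13 was higher at 0.21, 1 was lower and 4 did not pass. The lower gene was SOX4, which is active in progenitor cells of several tissues, with 274 and 307 CPM without Dox and 183 and 209 CPM with it. It fell by 0.57 on the log2 scale (SE 0.058, edgeR adjusted p = 6.32e-09), opposite in direction to SOX9. The ETS relatives of ELF3 gave 0 calls among 5 tested, between -0.076 and 0.18, and among them EHF, the epithelial factor closest to ELF3 in role, had 74.2 and 74.1 CPM against 73.4 and 77.8 CPM (0.028, adjusted p = 0.840). GATA2, GATA3 and HNF4G did not pass either. By DESeq2, 3 of the 26 relatives passed, beside 673 genes called in all, where edgeR called 1336.

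**Figure D4:**
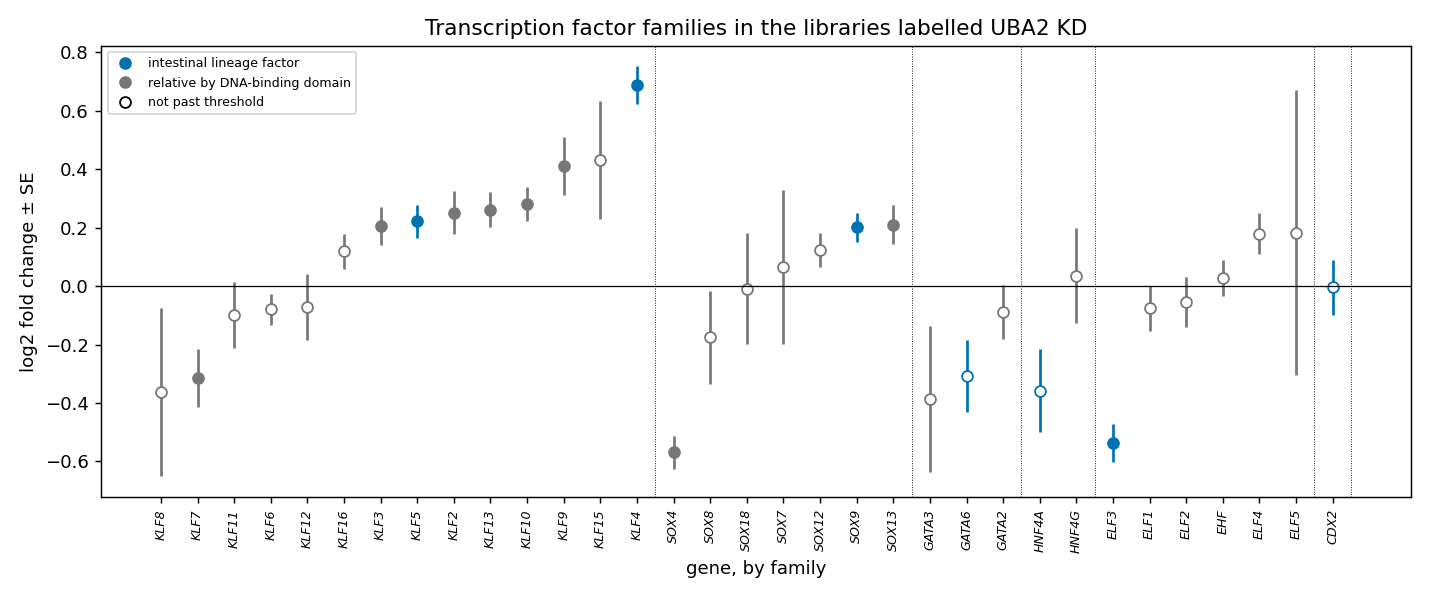
Log2 fold change with SE in the libraries labelled UBA2 KD against cells without Dox, for the intestinal transcription factors (blue) and tested relatives by DNA-binding domain (grey), grouped by family; filled points passed an edgeR adjusted p under 0.05. Among the Krüppel-like factors KLF4 is highest at 0.69, SOX4 at -0.57 lies opposite to SOX9 at 0.20, and in the ETS family ELF3 at -0.54 is the only filled point.

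In TFAP2C KD, 0 of 27 tested relatives passed the threshold of edgeR, beside 0.74% of all genes. By DESeq2 0 passed, beside 114 genes called in all, where edgeR called 111. An unadjusted p under 0.05 was found for 4 of the 27, beside 12.6% of all genes. Their median log2 fold change was -0.0074. The Krüppel-like relatives lay between -0.56 and 0.32 and the SOX relatives between -0.28 and 0.12.

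A list of 34 other transcription factors of the intestine placed the 8 among their partners. In the libraries labelled UBA2 KD, 4 of 21 tested passed (19%, beside 9.98% of all genes), 1 higher and 3 lower, with a median of -0.062. By DESeq2 2 passed, beside 673 genes called in all, where edgeR called 1336. HES1, a Notch target that favours absorptive cells, had 34.4 and 36.2 CPM without Dox and 42.9 and 44.6 CPM with it (0.31, edgeR adjusted p = 0.00422). TCF7L2, the main TCF partner of β-catenin in the crypt, had 267 and 261 CPM against 228 and 226 CPM (-0.22, adjusted p = 0.00193).

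MYB, a factor of dividing progenitors, had 10.0 and 9.06 CPM against 6.83 and 7.47 CPM (-0.41, edgeR adjusted p = 0.0387). BCL11B fell from 3.26 and 3.50 to 1.999 and 2.20 CPM (-0.69, adjusted p = 0.0357). In TFAP2C KD, 0 of 21 passed by edgeR or DESeq2, beside 111 and 114 genes called in all. By edgeR 3 had an unadjusted p under 0.05, beside 12.6% of all genes, and the median was 0.0038.

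Of 45 products of intestinal epithelium, many of them known targets of CDX2 and HNF4A, few were expressed enough to test. They summed to 1439 to 1732 CPM in the siRNA experiment and 333 to 362 CPM in the shRNA experiment. KRT19 held the most in both, and ESPN, PLS1 and CA2 were also among those tested. In the shRNA experiment 18 had 0 counts in all 4 libraries, among them FABP1, SI and TFF3, and 9 were tested. FCGBP, a mucus protein, was the only gene called (11.1%, beside 9.98% of all genes), with 5.29 and 5.94 CPM without Dox and 9.16 and 8.97 CPM with it (0.69, edgeR adjusted p = 0.000739). In the siRNA experiment 15 products had 0 counts and 12 were tested. Of these, 0 passed by edgeR or DESeq2, beside 111 and 114 genes called in all. By edgeR 2 had an unadjusted p under 0.05, again beside 12.6% of all genes. The median log2 fold changes were -0.086 and -0.026.

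The genes whose pattern over the 8 libraries was most like that of a changed factor were found by Pearson's r of log2 CPM, less the mean of each table, among 12158 genes tested in both. The 8 points share libraries, depth and the division into groups, so r is a description. For KLF4 these were SLC3A2 (r = 0.990) and NDEL1 (0.988), and for KLF5 they were SAMD4A (0.997) and ETS1 (0.994). For SOX9 they were NELFE (0.978) and WDR45B (0.976), and for ELF3 they were RNF165 (0.992) and C1QL1 (0.989). SLC3A2, the heavy chain of amino acid transporters, had a log2 fold change of 0.70 in the libraries labelled UBA2 KD. There NDEL1 had 0.25 and KLF4 had 0.69. RNF165 had -0.60 and C1QL1 had -0.79, where ELF3 had -0.54.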

How the data were processed

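mRNA-seq of HCT116 cells was analysed in 8 libraries, in groups taken from the sample labels. The authors aligned reads with TopHat2, counted them on genes with HTSeq (0.9.1 per the labels' processing notes) and deposited raw read counts per gene. The methods name hg19, which matches the positions in the table of the shRNA experiment, while those in the table of the siRNA experiment are of GRCh38. The strand setting is not given in the sources used here. The latter table holds 37 mitochondrial genes, which took 9.79% to 9.96% of its counts, and the former 0. Columns without a sample numbered 0. Gene lengths are a further column of each deposited table, in kb.

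In R 4.3.3 the knockdown libraries of a table were set against the controls of that table by the two-sided quasi-likelihood test of edgeR 4.0.16 (filterByExpr, TMM), with Benjamini-Hochberg adjustment over all genes tested. CPM and RPKM were computed here, and confidence intervals are at 95%. Rank or permutation tests of single genes cannot reach a p of 0.05 with 2 libraries a group. The 8 genes and the lists were chosen with earlier results of these data known. Named beside them were TFAP2C, UBA2, up to 4 called genes in each direction from each list (mean log2 CPM of at least 0) and the 2 genes most like each changed factor. The remaining names were chosen after their values were seen. Alternatives were DESeq2 1.42.0, other scalings and filters, a replicate block, a fit of all 8 libraries, and leaving out libraries or mitochondrial genes. The scripts were tested on simulated data.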

Additional observations from a re-analysis of the deposited data

Results flagged for a closer look

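Among the 7 factors tested in both experiments, the interaction test of edgeR called a difference for KLF4 and ELF3. The change in TFAP2C KD less that in the libraries labelled UBA2 KD was -0.53 for KLF4 (SE 0.12, adjusted p = 0.0249). For ELF3 it was 0.42 (SE 0.095, adjusted p = 0.0322), and with the replicate number as a block the adjusted p was 0.106. Both calls depended on single libraries, and the experiments differ in more than their targets. The same test gave a difference of 0.61 for SOX4 (SE 0.097, adjusted p = 0.00266) and of -0.49 for HES1 (SE 0.11, adjusted p = 0.0365). SOX4 and HES1 are shown because they passed, and the other named genes of the lists are not shown. Both had already been called with Dox against no Dox, and the same libraries enter the difference. Whether their differences hold without single libraries was not tested. Among 13179 genes tested for this difference, 2.37% passed the threshold. That share is of all genes, not of genes chosen by an earlier call, so SOX4 and HES1 cannot be weighed against it.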

How the results depend on the processing

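With 2 libraries a group, leaving out 1 leaves a lone library that is assumed to vary like the others. Over all genes, left-out fits called 49 to 2825 in TFAP2C KD (111 with all libraries), the most without replicate 2 of TFAP2C KD, 833 to 1271 in the libraries labelled UBA2 KD (1336) and 113 to 1554 for the difference (313). Of the 8 factors they called 0 to 1, 2 to 5 and 0 to 2. In TFAP2C KD they called 0 to 2 of the other intestinal factors, 0 to 4 relatives and 0 to 2 products, and in the libraries labelled UBA2 KD 1 to 3, 3 to 7 and 1 to 3. SOX9 in TFAP2C KD lay between -0.060 and 0.071, CDX2 in the libraries labelled UBA2 KD between -0.075 and 0.076, and UBA2 there between -0.11 and 0.038.

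In TFAP2C KD, 398 genes were called without a filter, 467 with a crossed pairing of replicate numbers (added after seeing the data) and 271 in a fit of all 8 libraries, and these settings called 1, 2 and 1 of the other intestinal factors; the crossed pairing also called 1 relative and 1 product, and no filter 1 product. SOX9 turned to -0.020 with library size only and to -0.0012 in the fit of all 8. In the libraries labelled UBA2 KD, DESeq2 called 673 genes, 2 other factors and 3 relatives, and the fit of all 8 called 696, 2 and 4. For the difference, 607 genes were called without a filter. Library size in place of TMM gave 588 higher and 805 lower genes in the libraries labelled UBA2 KD, against 738 and 598. The directions of KLF4, KLF5, SOX9 and ELF3 were unchanged by it.

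The replicate numbers are shared by label only, and same-numbered libraries deviated together with a correlation of -0.14 in the siRNA and 0.074 in the shRNA experiment. A block for the replicate number called 172 genes in TFAP2C KD and 173 for the difference, where it left 1 factor, and it changed no call of the 8 factors within either experiment. HNF4A, at 13 to 26 counts a library, and CDX1 limit what the siRNA experiment can show.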
